A study of Mus musculus with 12 samples.

Results

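The IFNβ effect shared by 2 lymphoma lines, 3s and 30s, was read as the mean of the effects in each line. It was taken for each of the 30098 genes with a probe set of only 1 gene symbol. It rested on all 12 arrays of the series, 6 from IFNβ-treated and 6 from vehicle-treated cultures, with the cell line as a covariate, so that each line was compared with its own vehicle arrays. There were 3 arrays in each of the groups 3s IFNβ, 3s vehicle, 30s IFNβ and 30s vehicle, labelled as biological replicates. Values are log2 signals after RMA (robust multi-array averaging) on mouse transcriptome arrays, and an effect is the log2 value after IFNβ minus that after vehicle.

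Each is a single line of B cell lymphoma from the spleen of a C57BL6/CBA mouse that carried Mx1Cre, the EµMyc transgene and p53+/-. EµMyc drives Myc from the immunoglobulin heavy chain enhancer, and Mx1Cre makes Cre recombinase from an interferon-responsive promoter. The Runx1 alleles were floxed (Rx1fl/fl) in 3s cells and wild type (Rx1WT/WT) in 30s cells. In 3s cells IFNβ therefore comes with Cre and Runx1 excision, and in 30s cells with Cre alone, so what both lines share holds IFNβ and Cre together, and the agents cannot be told apart within it. The genotype entry of the labels follows the treatment in both lines, against the title and source of the same samples, and the groups were taken from the titles. Cultures received 50 U/ml IFNβ, or PBS with 0.1% BSA as vehicle, for 72 h, and were harvested after 6 more days in fresh medium.

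Type I interferons bind the receptor made of Ifnar1 and Ifnar2, which signals through Jak1 and Tyk2 to factors that include Stat2 and Irf9. These factors bind the interferon-stimulated response element (ISRE) in the promoters of antiviral genes such as Mx1, Ifit1 and Oas2. In B cells the same cytokine is known to alter antigen presentation, surface receptors and growth.

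By the averages of marker lists the cultures read as B cells. The 7 measured markers of B cell identity averaged between 12.68 and 13.0 on every array, whereas the 4 marker lists of other lineages (myeloid, erythroid, T and NK, stromal and endothelial) averaged between 4.75 and 5.67. Single members went the other way. Of 17 myeloid markers 2 had a mean over 8, the highest 15.29, and of 11 stromal and endothelial markers 1 did, at 9.91. No marker on these lists passed the test of the mean effect, beside 0.269% of all genes. The arrays had medians between 5.43 and 5.49, and the median SD of a gene over 3 replicates was 0.0689 to 0.0714 in the 4 groups. In bulk RNA fewer cells of a type and less RNA per cell cannot be told apart. The Runx1 probe set averaged 7.88 after IFNβ and 7.90 with vehicle in 3s cells, and 8.32 after IFNβ and 8.24 with vehicle in 30s cells. The sources do not say whether its probes cover the excised exon, so the value is no check of the excision.

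The shared effect was small. In limma's additive fit of line and treatment, 81 genes passed an adjusted p of 0.05, which is 0.269% of the genes tested. Of these, 39 rose (0.13%) and 42 fell (0.14%). The split depended on scaling: 52 rose and 37 fell with each array centred on its median, 30 rose and 52 fell after a further quantile normalisation, and 28 rose and 57 fell after cyclic loess. At an unadjusted p under 0.05, 3008 genes (9.99%) passed. The 81 effects had a median size of 0.304, between 0.178 and 0.999, against 0.0405 over all genes, so no called gene doubled or halved on average. A change of over 1.5-fold was met by 5 of them, and an effect over 0.32 in size by 38.

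All 81 genes had their 3 IFNβ arrays beyond their 3 vehicle arrays in the same direction in both lines. Over all genes that pattern was met by 518 (1.72%), while 498 genes (1.65%) were separated in both lines in opposite directions. The test of the difference between lines passed for 2 of the 81, Enpp4 and Prodh, and for 307 of all 30098 genes (1.02%). The additive fit counts such a difference as error, so its calls are not independent of this test. Nor are they independent of the separation, which is read from the same arrays, so the separation of all 81 is no further support. The effect was larger in 3s cells for 43 of the 81 and larger in 30s cells for 38. Of the 81, 19 also passed in each line's own contrast, 25 in 3s cells alone, 21 in 30s cells alone and 16 in neither. The lines' own contrasts in limma's fit of 4 group means called 307 genes in 3s (1.02%) and 346 in 30s cells (1.15%) at an adjusted p of 0.05.

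**Figure D1:**
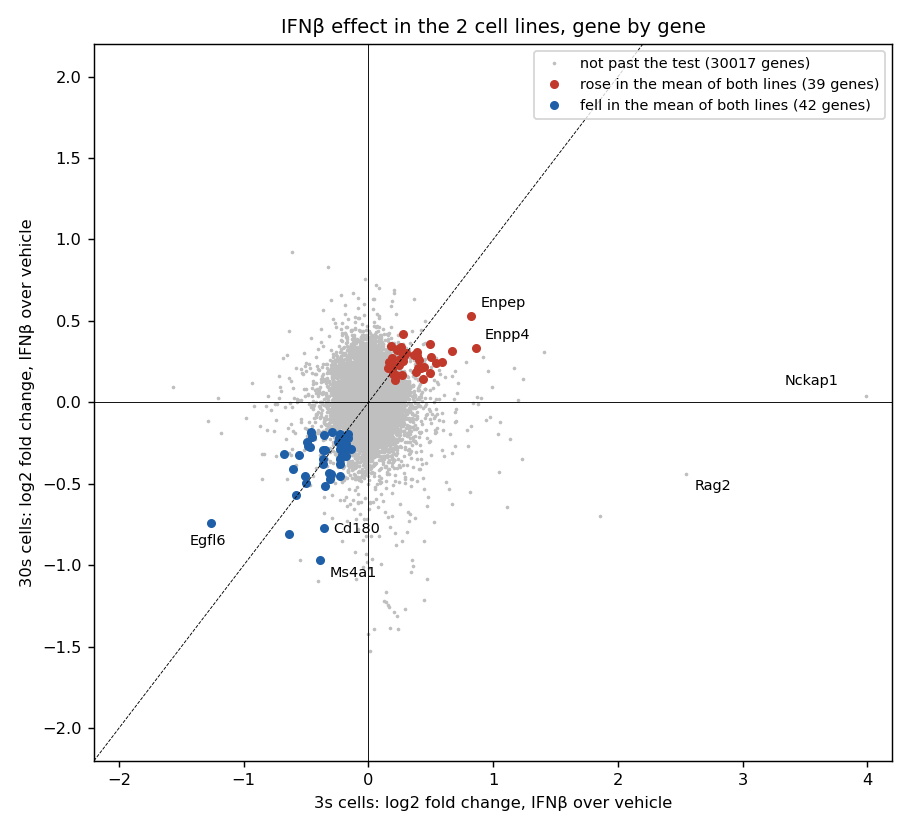
Each point is 1 gene, with its log2 fold change of IFNβ over vehicle in 3s cells on the x axis and in 30s cells on the y axis, and the dashed line marks equal effects. The 39 genes that rose (red) and the 42 that fell (blue) lie in the quadrants where both lines have the same sign, while the largest effects of 3s cells, such as Nckap1 and Rag2, lie far from the dashed line.

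A large mean could also come from 1 line. Nckap1, a subunit of the actin-regulating WAVE complex, had the largest mean effect of all genes, 2.01, but this joined an effect of 3.99 in 3s cells to one of 0.04 in 30s cells and it did not pass the shared test (adjusted p = 0.214, limma). Rag2, a subunit of the recombinase of antigen receptor genes, had a mean effect of 1.05 from 2.54 in 3s cells and -0.44 in 30s cells (adjusted p = 0.443, limma). Across genes the effects of both lines showed almost no common order, with a Pearson correlation of -0.0075 and a Spearman correlation of 0.01 over 30098 genes. Among the 8280 genes with a mean over 8 they were -0.024 and 0.00061. The lines share no arrays, though genes are not independent replicates. Genes were also chosen in 1 line and read in the other, whose values the choice did not use. Of 452 genes at an unadjusted p under 0.05 and with an effect over 0.32 in size on the 3s arrays alone, 224 (49.6%) had the same direction in 30s cells, beside 50.7% of all genes. Of 582 genes chosen on the 30s arrays alone, 292 (50.2%) had the same direction in 3s cells.

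A secreted protein, surface proteins and signalling enzymes led the named genes that fell. Egfl6, a secreted protein with EGF repeats that binds integrins, fell most. It read 9.57, 9.69 and 9.42 in IFNβ-treated 3s cells against 10.78, 10.82 and 10.85 with vehicle. In 30s cells it read 9.70, 9.85 and 10.11 after IFNβ against 10.72, 10.65 and 10.52 with vehicle. Every IFNβ array lay below every vehicle array, in either line, and the mean effect was -0.999 ± 0.0999 (SE; adjusted p = 0.00226, limma). The window around its start is shown because it is the gene with the largest shared change. It lies at chrX:166585667-166585966 on the minus strand of GRCm38.p6 (RefSeq) and holds none of the motifs searched:
Egfl6: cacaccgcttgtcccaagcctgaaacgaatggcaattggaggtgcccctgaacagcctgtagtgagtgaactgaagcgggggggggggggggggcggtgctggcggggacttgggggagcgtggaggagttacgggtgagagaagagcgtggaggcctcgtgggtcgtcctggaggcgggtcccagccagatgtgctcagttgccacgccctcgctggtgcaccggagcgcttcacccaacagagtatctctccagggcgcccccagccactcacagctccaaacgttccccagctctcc

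Among the genes of mature B cell surface proteins, Ms4a1 and Cd180 fell. Ms4a1 encodes CD20, the target of therapeutic anti-CD20 antibodies. It read 11.27, 10.97 and 11.08 in IFNβ-treated 3s cells and 11.45, 11.55 and 11.48 with vehicle, and in 30s cells 8.12, 8.18 and 8.55 after IFNβ and 9.18, 9.08 and 9.49 with vehicle. The groups did not overlap in either line, and the effects were -0.39 (3s) and -0.97 (30s), with a mean of -0.68 (adjusted p = 0.0458, limma). The difference between lines did not pass the test (adjusted p = 0.209, limma). Ms4a1 kept its call in 1 of the 12 fits that left out an array. Cd180, a Toll-like receptor homologue that takes part in the B cell response to lipopolysaccharide, read 10.76, 10.75 and 10.47 after IFNβ in 3s cells, against 11.04, 11.02 and 10.99 with vehicle. In 30s cells it read 8.79, 8.998 and 8.81 after IFNβ and 9.77, 9.51 and 9.64 with vehicle. Its mean effect was -0.56 (adjusted p = 0.0224, limma), and the call held in 7 of those 12 fits. Of the 19 genes measured on the mature B cell list these 2 fell and none rose, beside 0.14% of all genes that fell and 0.13% that rose, and the list's median was -0.06 beside 0.0019 over all genes. The next members had effects of -0.38 for Tnfrsf13c, the receptor of the survival factor BAFF, 0.30 for the inhibitory receptor Fcgr2b and -0.21 for the chemokine receptor Cxcr4, none of which passed.

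Prkcb, the protein kinase C of B cell receptor signalling, read 9.66, 9.82 and 9.77 in IFNβ-treated 3s cells and 10.44, 10.43 and 10.41 with vehicle. The 30s cells gave 9.14, 9.16 and 9.29 after IFNβ and 9.61, 9.53 and 9.40 with vehicle. The mean effect was -0.50 ± 0.0673 (SE; adjusted p = 0.0119, limma), and each line passed in its own contrast. Prkd2, a protein kinase D that protein kinases C activate, had a mean effect of -0.36, and Prkce, a further protein kinase C, one of -0.19. Dock10, an exchange factor for Cdc42 and Rac1, read 11.12, 11.12 and 11.13 in IFNβ-treated 3s cells against 11.60, 11.60 and 11.59 with vehicle, and 11.15, 11.20 and 11.24 after IFNβ in 30s cells against 11.56, 11.47 and 11.38 with vehicle. Its IFNβ arrays were nearly equal in both lines, and the mean effect was -0.37 (adjusted p = 0.00454, limma). Arhgap4, a GTPase-activating protein, had effects of -0.36 in 3s cells and -0.38 in 30s cells. Dock5, which acts on Rac1, and Dennd1c, an exchange factor for Rab35, had mean effects of -0.21 and -0.24. Spry2, a feedback inhibitor of receptor tyrosine kinase signalling, read 6.69, 6.49 and 6.57 after IFNβ in 3s cells against 6.85, 6.92 and 6.89 with vehicle. The 30s cells gave 5.29, 5.37 and 5.51 after IFNβ and 5.82, 5.84 and 5.92 with vehicle, and its mean effect was -0.39 (adjusted p = 0.00816, limma). Prkce, Dock5 and Dennd1c were chosen after their values were seen.

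Other named genes that fell had a range of roles. Phyh, the peroxisomal enzyme that starts the breakdown of phytanic acid, read 8.21, 8.18 and 8.25 in IFNβ-treated 3s cells against 8.89, 8.71 and 8.86 with vehicle, and 7.09, 7.07 and 7.02 in IFNβ-treated 30s cells against 7.32, 7.47 and 7.61 with vehicle. Its mean effect was -0.51 ± 0.0561 (SE; adjusted p = 0.00404, limma). Pde8a, which breaks down cyclic AMP, had effects of -0.58 in 3s cells and -0.57 in 30s cells, with a mean of -0.57 (adjusted p = 0.0255, limma). Neither line passed in its own contrast for Pde8a, and its call held in 3 of the 12 fits that left out an array. Acss1, which makes acetyl-CoA in mitochondria, and Dsel, which is named for its likeness to dermatan sulfate epimerase, had mean effects of -0.37 each. The transcriptional regulators Lbh and Klf3 had mean effects of -0.43 and -0.38. Neto2, an auxiliary subunit of kainate receptors in neurons, had one of -0.37 with an adjusted p of 0.00226 (limma). The cytoskeletal genes Vim and Capg, named after their values were seen, had effects of -0.22 and -0.26. Ceacam1 and Ceacam2 (-0.27 and -0.34) are near-identical paralogs whose probes may read both, so they are uncertain as separate genes.

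Surface enzymes led the genes that rose. Enpep, glutamyl aminopeptidase, is the BP-1 antigen of early mouse B cells. It read 9.41, 9.12 and 9.14 in IFNβ-treated 3s cells against 8.54, 8.27 and 8.39 with vehicle, and 6.75, 6.67 and 6.72 in IFNβ-treated 30s cells against 6.28, 6.17 and 6.09 with vehicle. The lines differed by far more than the treatment moved either, yet no IFNβ array overlapped its vehicle arrays, and the mean effect was 0.68 ± 0.0728 (SE; adjusted p = 0.00362, limma). Enpp4, a membrane-bound nucleotide hydrolase, read 10.14, 9.98 and 10.01 in IFNβ-treated 3s cells against 9.14, 9.18 and 9.23 with vehicle. The 30s cells gave 9.63, 9.63 and 9.61 after IFNβ against 9.17, 9.34 and 9.34 with vehicle. The mean was 0.60 (adjusted p = 0.0162, limma), made up of 0.86 in 3s cells and 0.34 in 30s cells, a difference that itself passed (adjusted p = 0.0103, limma). Prodh, the mitochondrial proline dehydrogenase, was the other gene with such a difference, with effects of 0.44 (3s) and 0.14 (30s).

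Dclre1a, a nuclease of DNA crosslink repair, had an adjusted p of 0.00211 (limma). It read 8.10, 8.05 and 8.09 in IFNβ-treated 3s cells against 7.55, 7.55 and 7.65 with vehicle, and 7.41, 7.28 and 7.30 in IFNβ-treated 30s cells against 6.90, 7.03 and 6.99 with vehicle. The mean effect was 0.43. Jcad, a junctional protein of endothelial cells, had an effect of 0.39, and Rgcc, a regulator of the cell cycle kinase Cdk1, one of 0.35. Arap2, a GTPase-activating protein for Arf6, had effects of 0.41 (3s) and 0.26 (30s), and Rapgef2, an exchange factor for Rap1, of 0.26 (3s) and 0.34 (30s). Itga6, the alpha6 integrin subunit, and Pcyt1a, the rate-limiting enzyme of phosphatidylcholine synthesis, had mean effects of 0.33 each. Gsr, glutathione reductase, rose by 0.23 (3s) and 0.32 (30s), and Got1, the cytosolic aspartate aminotransferase, by 0.25 (3s) and 0.26 (30s). Gsr and Got1 were chosen after their values were seen. The remaining rises named by rank were Myo18b (0.34), Tmc7 (0.30) and Vps45 (0.29), the last a regulator of vesicle fusion on endosomes.

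**Figure D2:**
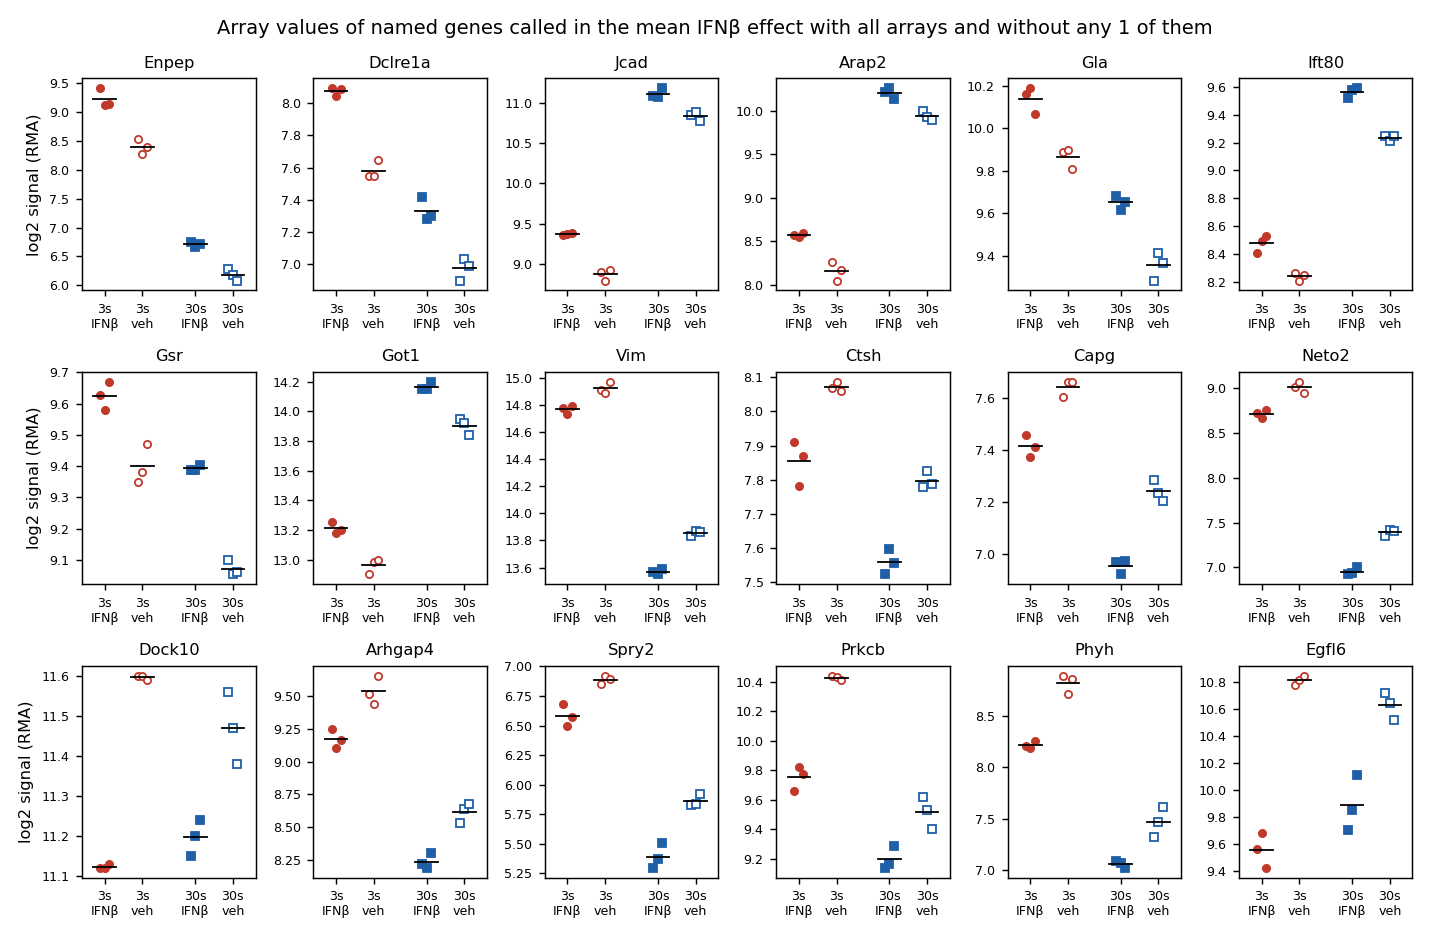
Each panel shows 1 of the 18 named genes that passed the test with all 12 arrays and without any 1 of them, with log2 signal on the y axis, IFNβ arrays filled, vehicle arrays open, 3s in red circles, 30s in blue squares and a bar at the group mean. In every panel both lines moved the same way and no IFNβ array overlapped the vehicle arrays of its line, while the distance between the lines was often larger than the treatment effect. The genes were chosen by the test on these same arrays.

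Lysosomal enzymes stood among the smaller rises. This list of 34 genes was drawn up after the results were seen, so its counts are a description only. Of 28 measured, 3 rose (Gla, Gaa and Lgmn) and 1 fell (Ctsh), beside 0.13% and 0.14% of all genes. Of the 28, 20 had a mean effect above 0, with a list median of 0.06. Of all genes 15493 of 30098 had a mean effect above 0, and of those with a mean level over 8, 5518 of 8280, with a median of 0.03. The median level of the lysosomal list was 9.19, so its share above 0 was near that of bright genes. Gla, alpha-galactosidase A, read 10.16, 10.19 and 10.07 in IFNβ-treated 3s cells against 9.89, 9.90 and 9.81 with vehicle. In 30s cells it read 9.68, 9.62 and 9.66 after IFNβ against 9.28, 9.41 and 9.37 with vehicle. Its effects were nearly equal in both lines, 0.28 and 0.30 (mean effect adjusted p = 0.00454, limma). Lgmn, the cysteine protease legumain, had a mean effect of 0.31 (adjusted p = 0.0255, limma), and Gaa, acid alpha-glucosidase, one of 0.21 (adjusted p = 0.0423, limma). Ctsh, cathepsin H, read 7.91, 7.78 and 7.87 in IFNβ-treated 3s cells against 8.07, 8.09 and 8.06 with vehicle, and 7.52, 7.60 and 7.56 in IFNβ-treated 30s cells against 7.78, 7.82 and 7.79 with vehicle. Its effect was -0.23 (adjusted p = 0.00839, limma). Gla and Ctsh kept their calls without any 1 of the 12 arrays, Lgmn in 3 of the 12 fits and Gaa in 1.

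The promoter windows of the 3 enzymes that rose are shown because they share a motif. Each runs from 250 bases before to 50 bases after the start in RefSeq for GRCm38.p6, and capitals mark the E-box CACGTG, which is its own reverse complement. The matches begin 227 and 194 bases before the start in Gla, 140 before it in Gaa and 49 before it in 1 of 2 windows of Lgmn. The windows lie at chrX:134600956-134601255 (minus strand), chr11:119267713-119268012 (plus strand) and chr12:102439043-102439342 (minus strand).
Gla: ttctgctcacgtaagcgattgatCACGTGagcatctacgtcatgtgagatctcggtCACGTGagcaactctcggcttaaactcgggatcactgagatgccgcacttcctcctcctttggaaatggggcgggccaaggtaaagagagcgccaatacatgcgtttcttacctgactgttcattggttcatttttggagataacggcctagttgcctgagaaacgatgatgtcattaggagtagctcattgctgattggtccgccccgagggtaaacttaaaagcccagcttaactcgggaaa
Gaa: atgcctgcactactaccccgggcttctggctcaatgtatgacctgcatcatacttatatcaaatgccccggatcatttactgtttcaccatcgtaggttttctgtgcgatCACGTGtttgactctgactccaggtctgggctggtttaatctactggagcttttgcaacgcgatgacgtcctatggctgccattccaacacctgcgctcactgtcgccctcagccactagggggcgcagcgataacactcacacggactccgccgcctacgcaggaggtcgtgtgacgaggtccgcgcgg
Lgmn: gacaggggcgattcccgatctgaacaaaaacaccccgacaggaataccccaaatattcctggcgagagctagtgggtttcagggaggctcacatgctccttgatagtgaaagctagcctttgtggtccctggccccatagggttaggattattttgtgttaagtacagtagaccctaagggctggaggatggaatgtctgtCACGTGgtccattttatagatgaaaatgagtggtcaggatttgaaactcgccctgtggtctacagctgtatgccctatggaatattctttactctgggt
The E-box was held by the windows of 8 of 24 lysosomal genes with a promoter (33.3%), beside 8.09% of all 27025 genes. Of the genes called, 4 of 26 that rose (15.4%) and 2 of 31 that fell (6.45%) held it. The lysosomal genes with the E-box other than Gla, Gaa and Lgmn did not rise by the test. A match of letters is not a binding site, and a link of the E-box to the rises was not tested.

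No gene on the list of interferon-stimulated genes passed the shared test, beside 0.269% of all genes. With 36 measured, that count alone says little about the list. The list's median was 0.01, and 21 had a mean effect above 0. At an unadjusted p under 0.05 there were 6 (16.7%), beside 9.99% of all genes. Of these, Ifih1 (0.28), Stat2 (0.15), Oas2 (0.14) and Irf9 (0.10) were higher after IFNβ and Ifit2 (-0.35) and Samd9l (-0.45) lower. Mx1, the antiviral GTPase whose promoter drives Cre in both lines, averaged 4.56 after IFNβ and 4.49 with vehicle in 3s cells, and 4.59 after IFNβ and 4.59 with vehicle in 30s cells. Ifit1, an antiviral RNA-binding protein, had an effect of 0.03. Ifih1, the cytosolic RNA sensor MDA5, averaged 6.55 after IFNβ and 6.399 with vehicle in 3s cells, and 7.02 after IFNβ and 6.596 with vehicle in 30s cells (adjusted p of the mean effect = 0.14, limma). Rnf213, an interferon-inducible ubiquitin ligase that was on no list and was chosen after its values were seen, did rise. It read 7.85, 7.78 and 7.92 in IFNβ-treated 3s cells against 7.36, 7.52 and 7.52 with vehicle, and 7.29, 7.25 and 7.32 in IFNβ-treated 30s cells against 7.13, 7.05 and 7.12 with vehicle. Its mean effect was 0.28 (adjusted p = 0.0309, limma), and the call held in 2 of the 12 fits without an array.

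None of the 7 genes measured for the receptor and its kinases and factors passed, with effects between -0.01 and 0.15. The same held for 7 feedback inhibitors, 7 interferon regulatory factors, 12 nucleic acid sensors and 12 genes of MHC class I. Irf4, which directs plasma cell and late B cell programmes, had the largest mean effect of the regulatory factors, 0.34, with an effect of 0.56 in 3s cells (adjusted p of the mean effect = 0.111, limma). Cgas, the DNA sensor, had 0.61 as the mean of 1.20 in 3s cells and 0.02 in 30s cells. Of 11 guanylate-binding and immunity-related GTPases none passed, and Gbp4 came nearest with an effect of 0.31 (adjusted p = 0.0654, limma). As 0.269% of all genes passed, a lack of calls on lists this short says little about them.

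The ISRE was common in the promoters of the interferon list, and among the called genes it was found in 1. As an example, the window of Ifit1, at chr19:34640639-34640938 on the plus strand of GRCm38.p6, holds the ISRE letters GAAANNGAAA at 2 places, read on the reverse strand and shown in capitals:
Ifit1: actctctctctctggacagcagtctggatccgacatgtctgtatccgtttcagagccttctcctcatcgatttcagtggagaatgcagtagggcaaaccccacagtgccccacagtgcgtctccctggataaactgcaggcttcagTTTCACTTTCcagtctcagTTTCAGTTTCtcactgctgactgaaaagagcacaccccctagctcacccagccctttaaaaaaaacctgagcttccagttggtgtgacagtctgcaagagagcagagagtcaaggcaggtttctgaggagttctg
Such letters, on either strand, were in the windows of 13 of 27 interferon-stimulated genes with a promoter (48.1%) and of 3.99% of all genes. Among the 57 called genes with a promoter they were found in 1, Tmc7, which rose. That is 3.85% of the 26 that rose and 0 of the 31 that fell, counts too small to set apart from the share over all genes. The Runx letters TGTGGT were in 4 of 26 genes that rose (15.4%) and 6 of 31 that fell (19.4%), beside 18.9% of all genes.

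Of 11 genes of MHC class II antigen presentation, 1 fell and none rose, beside 0.14% and 0.13% of all genes. H2-Ob, a subunit of the H2-O protein that restrains peptide loading, read 11.18, 11.11 and 11.18 in IFNβ-treated 3s cells against 11.29, 11.29 and 11.31 with vehicle. The 30s cells gave 10.25, 10.22 and 10.35 after IFNβ against 10.53, 10.54 and 10.62 with vehicle. Its mean effect was -0.21 (adjusted p = 0.0467, limma), and it kept its call in none of the 12 fits that left out an array. The list's median effect was -0.18, beside 0.0019 over all genes, with medians of -0.32 in 3s cells and 0.03 in 30s cells. The beta and alpha chain genes H2-Ab1 and H2-Aa had mean effects of -0.22 and -0.18 and did not pass, nor did Rfx5, a factor of MHC class II transcription, at 0.19.

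The other lists held no called gene, beside 0.269% of all genes, and on lists this short such a lack says little. This covered 25 measured cell cycle genes, with a median of -0.02, 15 of p53 and its targets (-0.01), 21 of apoptosis (-0.01), 20 of the Myc network (0.02), 14 ribosomal proteins (0.02) and 14 CDK inhibitors and antiproliferative genes (0.03). It also covered 19 genes of the pre-B receptor and early B cells (0.01), 10 of plasma cells (0.03), 12 of lipid uptake (-0.03), 15 of adhesion and homing (-0.0026) and 4 of the Runx family and its partners (0.03). The paper reports that its established lymphoma lines were without functional p53, so the p53 list is no reading of an intact pathway.

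**Figure D3:**
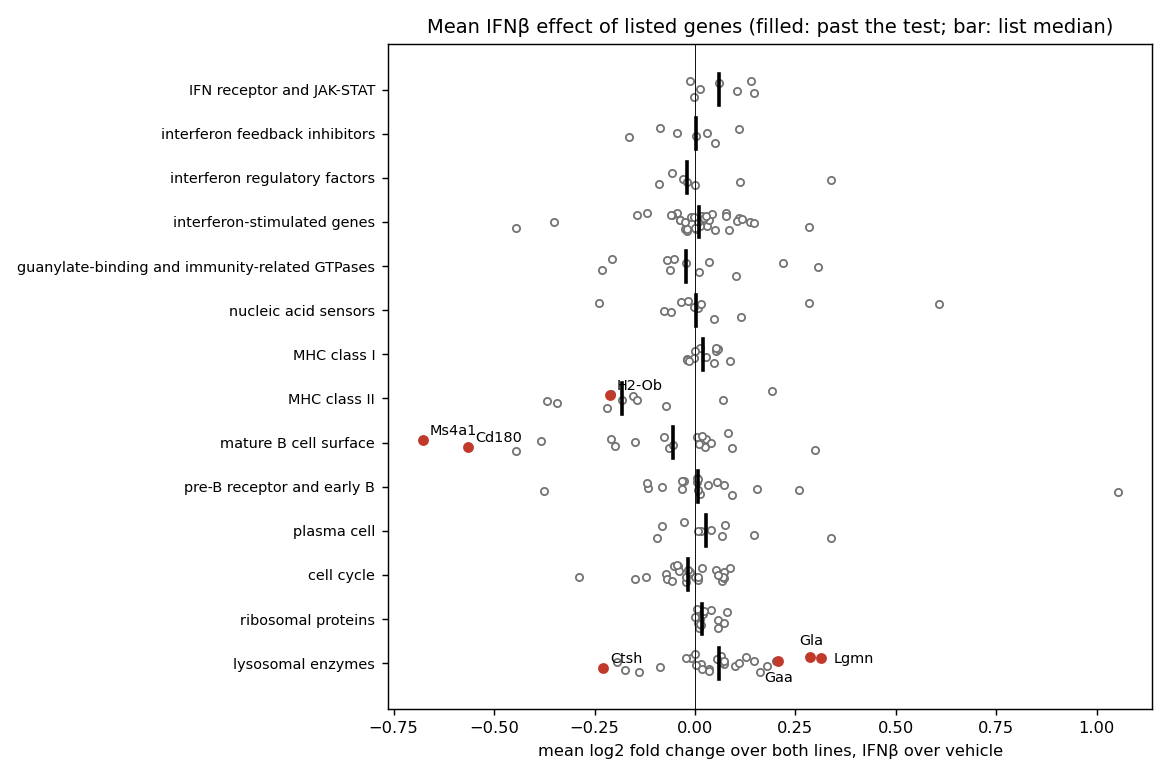
Each point is the mean log2 fold change of a listed gene over both lines, IFNβ over vehicle, with 1 row per list, filled and named where it passed the test, and a bar at the list's median. The interferon rows hold no filled point, and H2-Ob, Ms4a1, Cd180 and 4 lysosomal enzymes are the listed genes that passed.

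The 81 genes were of several kinds. There were 64 named protein or RNA genes (31 rose and 33 fell, 0.35% of 18294), 9 pseudogenes (6 rose and 3 fell, 0.187% of 4812), 7 predicted or clone-named genes (1 rose and 6 fell, 0.176% of 3985) and 1 segment of the immunoglobulin kappa locus, which rose by 0.34. None of 2662 small RNAs passed. On chromosome 19, 3 genes rose, among them Dclre1a and Got1, and 1 fell (0.471% of 850 called, beside 0.269% of all genes). On chromosome 3, 4 rose, among them Enpep, Rapgef2 and Vps45, and 1 fell (0.355% of 1409). Chromosomes 17 (0.526%) and X (0.487%) had higher shares than either. Those of chromosomes 18 (0.454%) and 10 (0.383%) were above that of chromosome 3. Genes of chromosomes 19 and 3 with a mean over 8 had median effects of 0.15 and 0.12 in 30s cells, beside 0.04 over all such genes. In 3s cells these were 0.03 and 0.01, beside 0.01. Whether a shift of these whole chromosomes adds to the rises was not tested. Mean levels over 8 were found for 44 of the 81 and for 8280 of all genes, and levels under 6 for 5 of the 81 and for 17276 of all genes. Probes of pseudogenes and of immunoglobulin segments may read their relatives, so these calls are uncertain.

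How far each call rested on single arrays differed between genes. In 12 further fits, each without 1 array, between 27 and 67 genes passed. The lowest count came without replicate 3 of 3s IFNβ and the highest without replicate 2 of that group. Without replicate 3 of 3s vehicle 65 passed. Each of the other arrays lowered the count by more than 1.5 times when left out: 40 passed without replicate 1 of 3s IFNβ, 35 and 31 without replicates 1 and 2 of 3s vehicle, 34, 34 and 53 without replicates 1, 2 and 3 of 30s IFNβ, and 50, 36 and 37 without replicates 1, 2 and 3 of 30s vehicle. Of the 81 genes, 22 passed in every one of these fits, 51 in some and 8 in none. The 22 included Egfl6, Phyh, Prkcb, Spry2, Arhgap4, Dock10, Neto2 and Ctsh among the falls and Enpep, Dclre1a, Jcad, Arap2, Gla, Gsr and Got1 among the rises. The 8 were Dock5, Gga2, Gm11606, Gm5133, Gmeb1, H2-Ob, Myo18b and Tmem242. The median over the 81 was 3 of the 12 fits. Among the 51, Enpp4 and Rapgef2 passed in 11 fits, Prkd2 in 10, and Klf3 and Rgcc in 4. Pde8a, Acss1, Lbh, Itga6, Pcyt1a and Vps45 passed in 3 fits. Tmc7, Prkce, Dennd1c and Ceacam2 passed in 2, and Dsel and Prodh in 1.

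**Figure D4:**
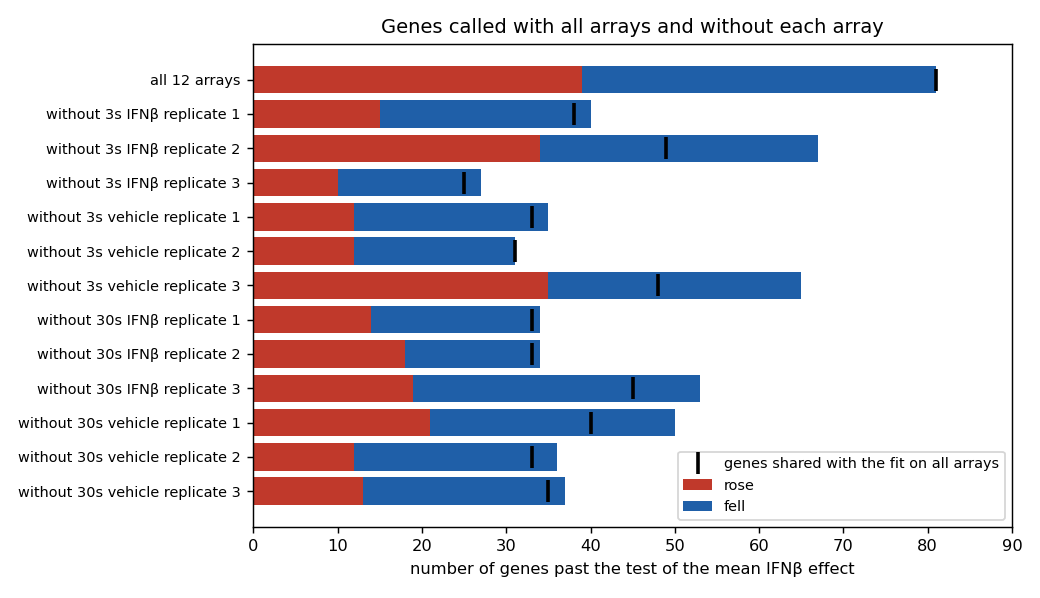
Bars give the number of genes past the test of the mean IFNβ effect with all 12 arrays (top) and without each array in turn, split into those that rose (red) and fell (blue), and the black mark gives how many of them are among the 81. Every fit without an array called fewer genes than the 81 of the full fit, between 27 and 67.

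A model with 4 group means, in which a difference between lines no longer adds to the error, called 316 genes. All 81 were among them, but only 162 of the 316 were separated the same way in both lines, 15 were separated in opposite directions, and 47 had effects of opposite sign in the lines. In that model 30 genes passed in both lines' own contrasts, 19 of them in the same direction, and all 19 were among the 81.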

How the data were processed

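The authors made the deposited log2 values from Affymetrix MTA arrays by RMA (background correction, quantile normalisation and probe summaries). The submitters' processing notes name Affymetrix Expression Console 1.4, and the methods name Partek Genomics Suite. No genome build is given for the arrays in the sources used here. Arrays give no read depth, and 3 arrays per group limit the precision. Nothing in the labels says how separate the replicate cultures were, so p-values measure only the spread between these samples.

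Of 72688 probe sets, 30638 have 1 symbol, 2176 several, 33142 none and 6732 are controls. A gene with several took the probe set with the highest mean, which left 30098 genes, 330 symbols being updated through RefSeq. Fits were made in R 4.3.3 with limma 3.58.1 (moderated, two-sided, Benjamini-Hochberg over all genes). The additive model of line and treatment has 9 residual degrees of freedom, and a model of 4 group means gave the effects within lines and their difference. "Rose" and "fell" mean an adjusted p under 0.05. On simulated data the additive fit found 71.9% of genes changed by 0.32 on the log2 scale and 96% of those changed 1.5-fold. Of its calls in these settings, 5.52% and 5.51% were of unchanged genes. Whether these shares hold for genes whose effects differ between the lines was not tested. Named genes are the 15 largest rises and 15 largest falls among called genes separated alike in both lines, leaving out predicted genes, pseudogenes, small RNAs and receptor segments, genes whose lines differ, up to 4 members of each of 25 lists, and Runx1. Members and lists were chosen with earlier results of these data known. Promoter sequences are from RefSeq (GRCm38.p6), which matched 57 of the 81 called genes.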

Additional observations from a re-analysis of the deposited data

Results flagged for a closer look

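For 3 named genes the IFNβ effect differed between the lines by limma's test of the difference over all genes, 3s effect minus 30s effect. For Enpp4, the membrane-bound nucleotide hydrolase that rose in both lines, it was 0.525 (adjusted p = 0.0103), and for Prodh, proline dehydrogenase, 0.293 (adjusted p = 0.04). For Samd9l, an interferon-inducible antiproliferative gene that did not pass in the mean, it was 0.799 (adjusted p = 0.0367). Samd9l averaged 11.83 after IFNβ and 11.88 with vehicle in 3s cells, and 9.65 after IFNβ and 10.50 with vehicle in 30s cells.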

How the results depend on the processing

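The count of 81 genes was 316 with 4 group means (162 of them separated alike in both lines), 146 among genes with a mean of at least 6 (134 separated alike), 37 by the methods' t-test, 28 over all probe sets and 38 with an effect over 0.32 in size. It stayed within 1.5 times of 81 with trend and robust moderation (56), array weights (92), median centring (89), quantile normalisation (82), cyclic loess (85), every probe set with 1 symbol (82) and the mean over probe sets (82), of which 54, 79, 75, 68 and 67 in the first 5 settings were among the 81. Leaving out each array gave 27 to 67 genes, and the same range for those separated alike. With the replicate number as a replicate block within each line, 4 genes passed. The deviations of same-numbered arrays of a line correlated at -0.097 to 0.13, and those of differently numbered arrays at -0.21 to 0.15. With 3 arrays per group this cannot settle whether same-numbered cultures were paired. Of the 33 named genes that passed, 32 did not pass with the replicate block, 20 by the methods' t-test and 6 with trend and robust moderation. Array weights lost 1, and median centring, quantile normalisation and cyclic loess lost 2 each. Under array weights, median centring, quantile normalisation and cyclic loess no named gene called in the mean effect changed direction. The replicate block, the t-test and the moderation leave the effect itself unchanged, so they could not reverse it. The causes were not tested. No detection calls come with these values, so how far a dim gene lies above background is not known. The median level of the interferon-stimulated genes was 6.04, beside 5.47 over all genes.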
